A study of Mus musculus with 20 samples.

Results

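The genes described here are 44 genes of mitosis, the step in which a cell separates its copied chromosomes into a pair of daughter cells. They were listed by name, by their known role in mitosis, with earlier results of these arrays known. Of the 17097 genes measured in all, 42 were members. Ccnb1, which encodes cyclin B1, and Nuf2, which encodes a kinetochore subunit, had no probe set assigned to that symbol alone and are not analysed here. Each gene is given by its probe set of highest mean over the 20 arrays, in log2 units, so that a difference of 1 is a 2-fold difference in fluorescence.

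A cell enters mitosis when cyclins switch on the kinase Cdk1. Condensins and topoisomerase compact the chromosomes, Aurora and Polo kinases and kinesin motors build the spindle, and kinetochores tie each chromosome to it. A checkpoint holds the cell back until all are attached, the anaphase-promoting complex then destroys the cyclins and securin, and cytokinesis divides the cell. The transcripts of these genes rise together late in each division cycle, and in CD8 T cells they appear in bulk when antigen drives clonal expansion.

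The arrays hold RNA of purified CD44+CD8+ effector T cells from mouse lungs bearing tumours of 4T1, a mammary carcinoma line. The treatments were intranasal saline (Saline-CTRL, 5 arrays), the TLR9 ligand SD-101 (6 arrays), SD-101 with an antibody against the T cell inhibitory receptor PD-1 (SD-101+anti-PD-1, 5 arrays), and the same pair with a-CD4 (SD-101+anti-PD-1+a-CD4, 4 arrays, below the a-CD4 group). The labels do not describe a-CD4 further, and give no mouse strain, age, sex, dose or time. Whether an array stands for 1 mouse or for pooled mice is not stated either, so the tests measure the spread between these arrays, which may in part be technical.

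The defining transcript of the purified cells was high in each group: Cd8a lay between 9.45 and 11.66 over the 20 arrays. Cd4 stayed near the bottom of the scale (2.69 to 3.51). RNA of other lung cells was present on all arrays: Sftpc, a surfactant gene of alveolar epithelium, lay between 12.53 and 13.44, and Krt8, a keratin of simple epithelia and carcinomas, between 7.10 and 11.70. Array values carry no read depth, and the number of arrays sets the precision. In bulk RNA, more dividing cells and more of these transcripts per cell cannot be told apart.

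The mitosis genes were highest in the a-CD4 group. Of 42 measured members, 36 rose and 0 fell in the a-CD4 group against saline, at an adjusted p under 0.05 in limma, a linear model with a variance estimate shared across genes. Among all genes, 4.09% rose and 3.03% fell in that comparison. The median difference of the members was 1.66, about a 3-fold change, against 0.037 for all genes, and 41 of 42 members were positive. The exception was Smc4 (-0.17, unadjusted p = 0.185). For 34 members every a-CD4 array lay above every saline array, which held for 4.84% of all genes. For 33 members every a-CD4 array lay above all 16 arrays of the other 3 groups, which held for 1.08% of all genes. The highest group mean was that of the a-CD4 group for 41 members, and the lowest was that of saline for 40.

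**Figure D1:**
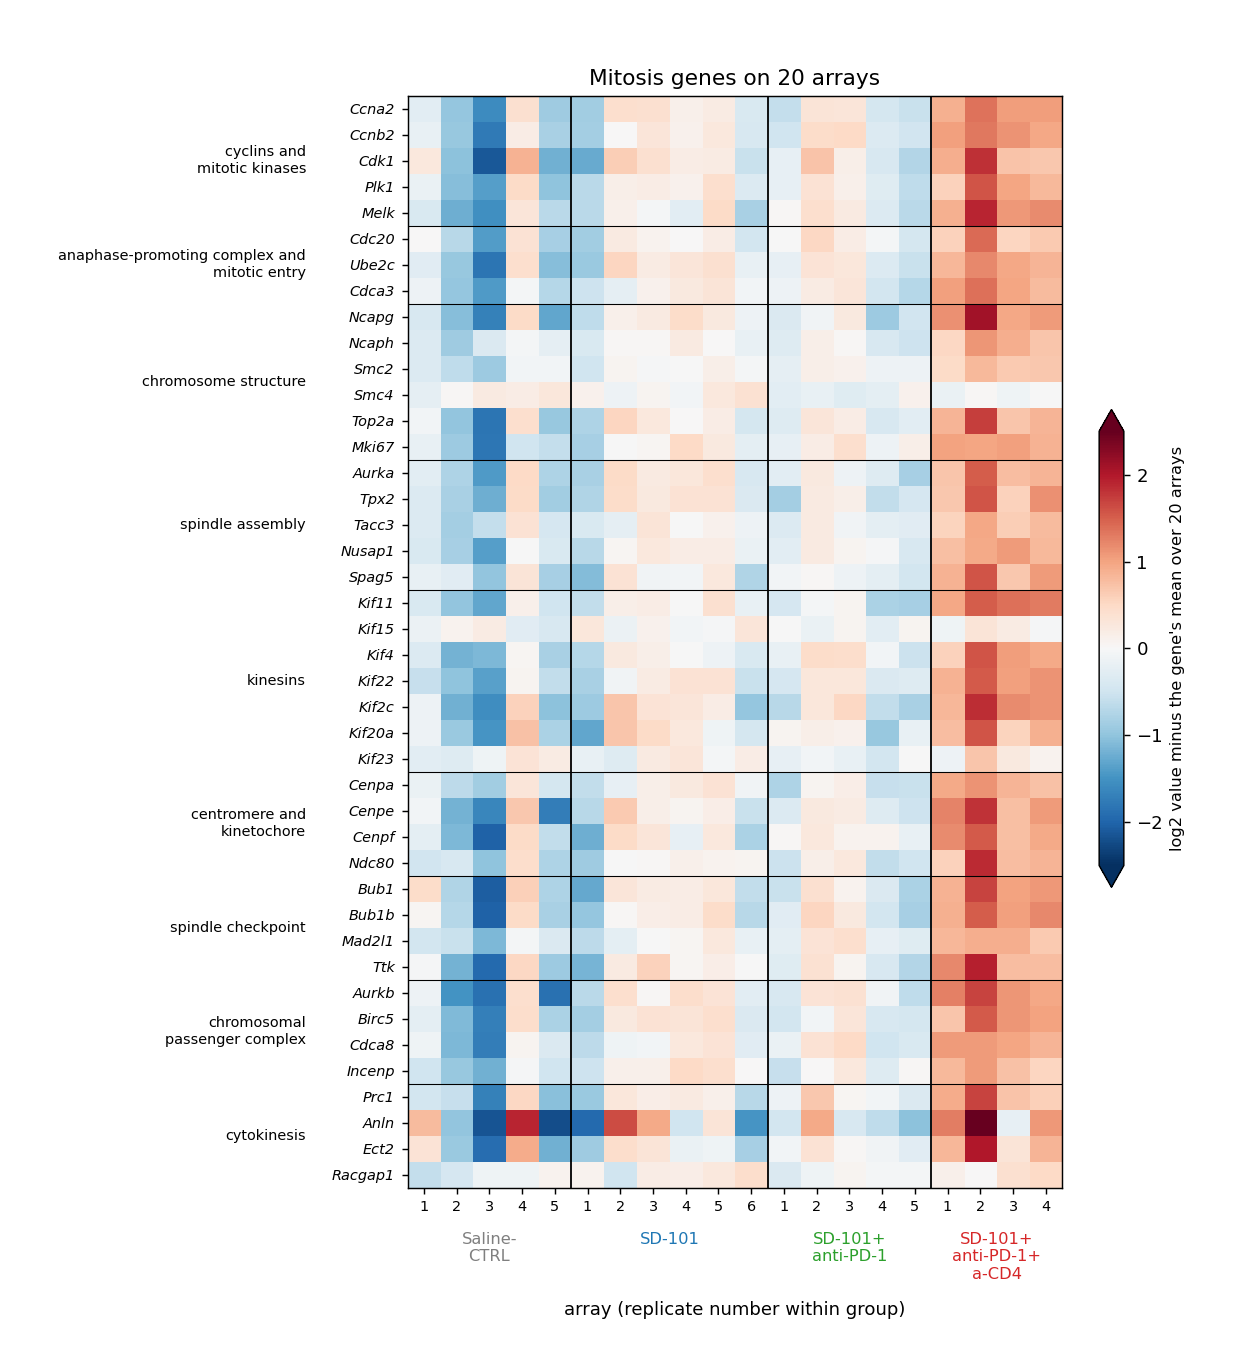
Log2 value of each of the 42 measured mitosis genes (rows, by role) on each of the 20 arrays (columns, by group, numbered by replicate), minus the gene's mean over all arrays. The 4 a-CD4 arrays are above the mean for nearly every gene, saline replicate 3 is the lowest of all arrays for 32 genes, and Smc4, Kif15, Kif23 and Racgap1 vary little.

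Many promoters of these genes share short sequence elements, and 6 are shown, all of genes followed array by array below. The cell cycle genes homology region (CHR), with the letters TTTGAA, binds the MuvB core complex, which represses late cell cycle genes in resting cells and activates them with B-Myb and FoxM1 in dividing ones. The NF-Y box, with the letters CCAAT, binds the activator NF-Y. The 6 windows shown each hold both elements, so they are not unselected examples of sharing. Among other genes followed array by array, Ndc80 and Anln had a CHR match but no NF-Y box, and Birc5 had no match. Cenpf, Plk1, Cdc20 and Prc1 had both elements and are not shown. The windows run from 250 bases before to 50 bases after the annotated transcription start, written 5′ to 3′ on the strand of the transcript, from RefSeq on GRCm38.p6, with each match to either motif on either strand in capitals. A match on the other strand reads TTCAAA for the CHR and ATTGG for the NF-Y box. Mki67 lies at chr7:135716330-135716629 (minus strand), Top2a at chr11:99024140-99024439 (minus strand), Cdk1 at chr10:69352863-69353162 (minus strand), Kif11 at chr19:37376132-37376431 (plus strand), Ncapg at chr5:45669675-45669974 (plus strand) and Bub1b at chr2:118597961-118598260 (plus strand).
Mki67: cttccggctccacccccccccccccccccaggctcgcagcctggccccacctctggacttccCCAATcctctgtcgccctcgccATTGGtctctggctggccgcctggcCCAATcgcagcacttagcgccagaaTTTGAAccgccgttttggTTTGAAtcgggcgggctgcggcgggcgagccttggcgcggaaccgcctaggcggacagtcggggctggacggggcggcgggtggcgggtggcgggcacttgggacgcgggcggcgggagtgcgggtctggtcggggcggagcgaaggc
Top2a: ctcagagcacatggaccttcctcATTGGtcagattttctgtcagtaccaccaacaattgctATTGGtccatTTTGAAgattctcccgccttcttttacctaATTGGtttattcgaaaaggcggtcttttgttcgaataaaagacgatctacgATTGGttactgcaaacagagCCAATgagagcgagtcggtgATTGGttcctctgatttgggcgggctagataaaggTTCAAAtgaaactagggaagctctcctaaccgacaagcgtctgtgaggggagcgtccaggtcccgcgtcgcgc
Cdk1: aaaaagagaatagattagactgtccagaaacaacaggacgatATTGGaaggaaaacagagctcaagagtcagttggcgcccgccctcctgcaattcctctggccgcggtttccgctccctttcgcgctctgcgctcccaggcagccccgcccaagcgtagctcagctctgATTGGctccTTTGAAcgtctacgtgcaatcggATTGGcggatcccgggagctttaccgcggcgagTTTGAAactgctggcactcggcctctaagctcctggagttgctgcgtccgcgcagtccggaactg
Kif11: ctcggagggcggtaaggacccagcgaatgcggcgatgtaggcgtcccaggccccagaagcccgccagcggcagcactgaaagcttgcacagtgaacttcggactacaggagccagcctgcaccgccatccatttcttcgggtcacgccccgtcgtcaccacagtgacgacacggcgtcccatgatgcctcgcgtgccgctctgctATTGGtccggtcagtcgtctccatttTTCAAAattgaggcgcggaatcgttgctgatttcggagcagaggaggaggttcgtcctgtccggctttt
Ncapg: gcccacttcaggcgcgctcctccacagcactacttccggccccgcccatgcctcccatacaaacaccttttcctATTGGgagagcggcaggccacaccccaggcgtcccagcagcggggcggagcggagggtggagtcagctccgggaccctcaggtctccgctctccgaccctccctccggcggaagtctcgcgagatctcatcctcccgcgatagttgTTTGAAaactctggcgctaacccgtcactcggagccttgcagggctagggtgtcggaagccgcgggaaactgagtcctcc
Bub1b: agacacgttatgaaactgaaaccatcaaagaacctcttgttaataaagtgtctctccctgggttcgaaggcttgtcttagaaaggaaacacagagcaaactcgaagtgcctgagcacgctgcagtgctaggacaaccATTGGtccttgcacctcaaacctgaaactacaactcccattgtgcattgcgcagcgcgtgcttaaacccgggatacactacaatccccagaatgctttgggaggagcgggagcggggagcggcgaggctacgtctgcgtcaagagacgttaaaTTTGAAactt

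RefSeq windows were found for 36 of the 42 measured members, in 38 windows, since Ect2 and Prc1 have 2 partly overlapping ones. Tpx2, Aurkb, Incenp, Ccna2, Kif20a and Smc4 had none in the table. A CHR match was present in 30 of the 38 windows (78.9%), against 17.9% of all 32851 promoter windows. An NF-Y box was present in 28 (73.7%), against 37.4%, and both were present in 26 (68.4%), against 6.95%. The 8 letters GGCGGGAA, a form of the E2F site found in DNA replication genes, were in 0 of the 38 windows and in 2.19% of all windows. Motifs were searched on both strands and counted separately, also where matches overlapped.

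The 40 CHR matches clustered at the start of the genes, with 29 of them within 50 bases of it, against 1702 of 6737 in all promoters. Matches were counted per window, so a site that lies in both windows of Ect2 or of Prc1 is counted in each. Of the NF-Y boxes 30 of 62 lay between 51 and 150 bases before the start, close to the share in all promoters (7492 of 17707). In the windows printed above, the CHR nearest the start begins 23 bases before it in Top2a, 15 in Cdk1, 19 in Kif11, 30 in Ncapg and 98 in Mki67, and at base 41 of the transcript in Bub1b. Mki67, Top2a and Cdk1 each have 2 CHR matches. Top2a has 6 NF-Y boxes, and Mki67 and Cdk1 have 3 each. A match is a stretch of letters and not a measured binding site.

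**Figure D2:**
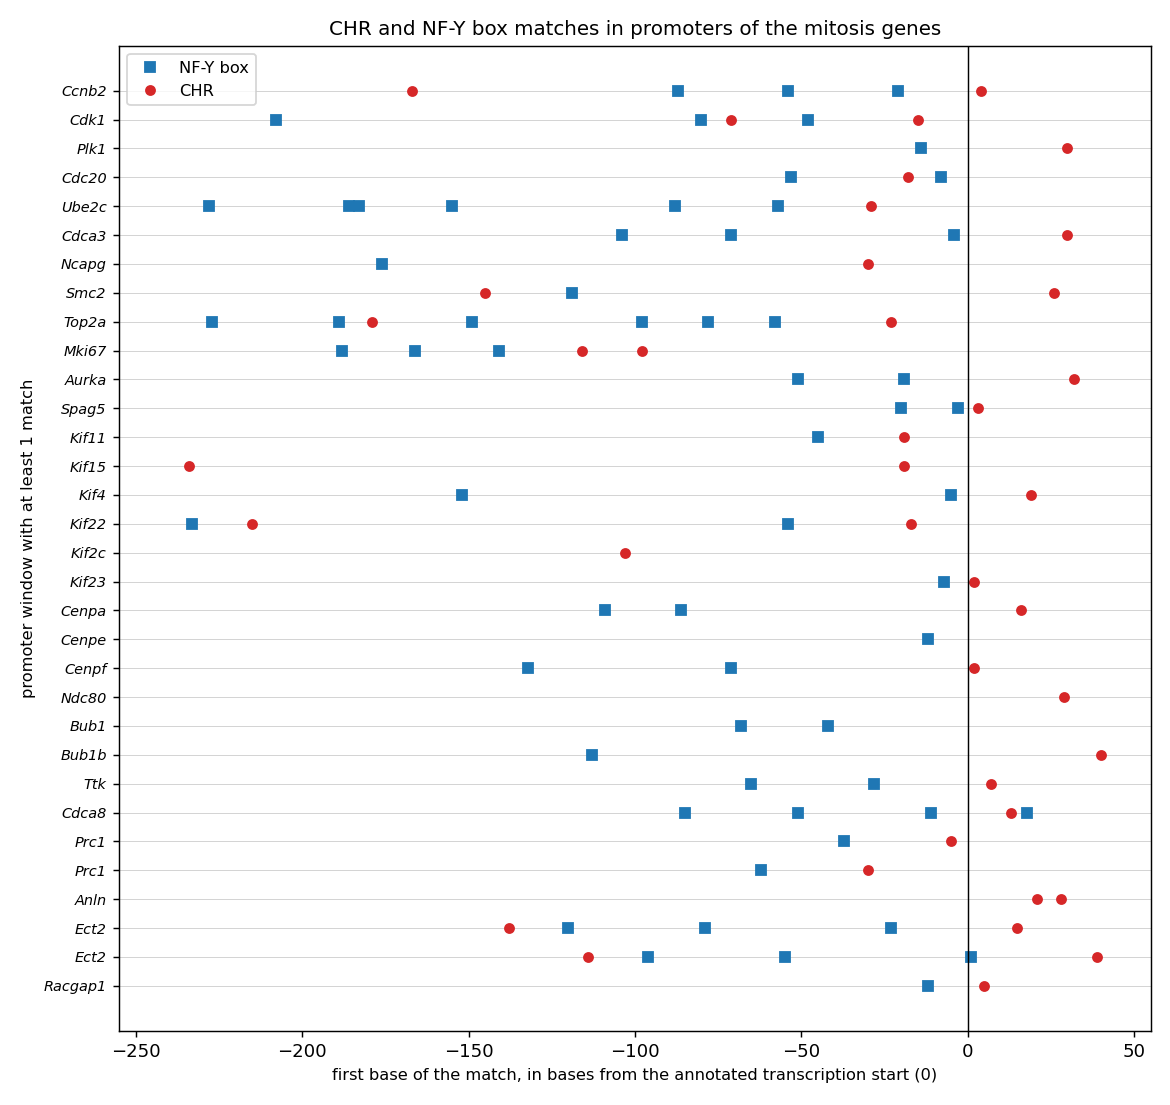
Position of each CHR match (circles) and NF-Y box match (squares) in the promoter windows of the mitosis genes, in bases from the annotated transcription start. Each row is a window with at least 1 match, and 29 of the 40 CHR matches lie within 50 bases of the start. Sites in both windows of Ect2 or of Prc1 appear in each row.

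The genes that carry and compact chromosomes include the most used mark of dividing cells. Mki67 was measured at 8.20, 7.49, 6.57, 7.89 and 7.80 on the saline arrays, from 7.55 to 8.88 (median 8.40) with SD-101, at 8.19, 8.58, 8.81, 8.25 and 8.53 with SD-101+anti-PD-1 and at 9.39, 9.37, 9.41 and 9.26 in the a-CD4 group. Mki67 encodes Ki-67, which coats mitotic chromosomes, and its 4 a-CD4 values lay within 0.15 of each other and above all other arrays. The group means were 7.59 ± 0.62 (SD, n = 5) with saline and 9.36 ± 0.070 (SD, n = 4) in the a-CD4 group, and the difference was 1.77, SE 0.27, adjusted p = 0.00101 in limma.

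Top2a was measured at 8.52, 7.60, 6.75, 9.002 and 7.64 on the saline arrays, from 7.81 to 9.11 (median 8.68) with SD-101, at 8.26, 8.87, 8.75, 8.17 and 8.30 with SD-101+anti-PD-1 and at 9.42, 10.31, 9.27 and 9.42 in the a-CD4 group. Top2a encodes the topoisomerase that untangles sister chromosomes, and the a-CD4 arrays again did not overlap the rest, with replicate 2 well above the other 3. The difference from saline was 1.70, SE 0.36, adjusted p = 0.00776. Ncapg was measured at 5.51, 4.83, 4.20, 6.37 and 4.61 on the saline arrays, from 5.27 to 6.36 (median 6.07) with SD-101, at 5.53, 5.81, 6.15, 4.99 and 5.43 with SD-101+anti-PD-1 and at 7.04, 7.997, 6.87 and 6.96 in the a-CD4 group. Ncapg encodes a subunit of condensin, the ring complex that compacts chromosomes, and had the second largest difference of the module, 2.11, SE 0.36, adjusted p = 0.00192. Its partner subunit Ncaph differed by 1.17 (adjusted p = 7.82e-04), from 5.33 to 6.16 on the saline arrays to 6.73 to 7.32 on the a-CD4 arrays. The condensin ATPase gene Smc2 differed by 1.06, adjusted p = 0.00101, and all 4 of its probe sets were higher in the a-CD4 group, by 1.06 to 1.32.

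Smc4, the ATPase partner of Smc2 in condensin, did not follow. It was measured at 9.69, 9.94, 10.14, 10.10 and 10.19 on the saline arrays, from 9.78 to 10.30 (median 9.996) with SD-101, at 9.65, 9.72, 9.61, 9.67 and 10.01 with SD-101+anti-PD-1 and at 9.74, 9.94, 9.79 and 9.91 in the a-CD4 group. The 4 groups overlapped, and the difference of the a-CD4 group from saline was -0.17, SE 0.12, adjusted p = 0.48. The other 2 Smc4 probe sets differed by 0.012 and -0.12.

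Among the cyclins and mitotic kinases 4 of 5 measured genes rose. Cdk1 was measured at 8.27, 6.98, 5.89, 8.87 and 6.80 on the saline arrays, from 6.74 to 8.63 (median 8.20) with SD-101, at 7.80, 8.73, 8.15, 7.61 and 7.26 with SD-101+anti-PD-1 and at 8.91, 9.83, 8.72 and 8.68 in the a-CD4 group. Cdk1 encodes the kinase that drives entry into mitosis. Saline replicate 4 and SD-101+anti-PD-1 replicate 2 lay above the lowest a-CD4 array, and the difference of 1.68 (SE 0.50) missed the threshold, with an adjusted p of 0.0507. Plk1 was measured at 6.03, 5.11, 4.80, 6.66 and 5.18 on the saline arrays, from 5.50 to 6.60 (median 6.32) with SD-101, at 5.98, 6.55, 6.31, 5.88 and 5.55 with SD-101+anti-PD-1 and at 6.76, 7.76, 7.16 and 6.99 in the a-CD4 group. Plk1 encodes Polo-like kinase 1, which acts in spindle assembly and mitotic exit, and it rose by 1.61, SE 0.33, adjusted p = 0.00575. The cyclin genes Ccna2 and Ccnb2 rose as well (1.74, adjusted p = 0.00393, and 1.81, adjusted p = 0.00279), as did Melk (1.96, adjusted p = 0.00201), which encodes a kinase expressed in dividing cells.

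The 3 genes of the anaphase-promoting complex and of mitotic entry rose. Cdc20 was measured at 7.96, 7.25, 6.54, 8.30 and 7.11 on the saline arrays, from 7.09 to 8.18 (median 8.002) with SD-101, at 7.94, 8.46, 8.12, 7.91 and 7.51 with SD-101+anti-PD-1 and at 8.52, 9.36, 8.49 and 8.59 in the a-CD4 group. Cdc20, the activator that turns the complex on once chromosomes are attached, rose by 1.31, SE 0.31, adjusted p = 0.0156. Replicate 2 stood apart among the a-CD4 arrays, and without it the adjusted p of Cdc20 was 0.055. Ube2c, the ubiquitin-conjugating enzyme of the complex, rose by 1.71, adjusted p = 0.00641, and Cdca3, linked to degradation of the mitotic inhibitor Wee1, by 1.70, adjusted p = 0.0011.

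All 5 spindle assembly genes rose. Tpx2 was measured at 5.97, 5.50, 5.09, 6.78 and 5.44 on the saline arrays, from 5.57 to 6.77 (median 6.62) with SD-101, at 5.46, 6.53, 6.47, 5.69 and 5.88 with SD-101+anti-PD-1 and at 6.98, 7.88, 6.89 and 7.46 in the a-CD4 group. Tpx2 activates Aurora A at the spindle, and it rose by 1.55, SE 0.33, adjusted p = 0.00813. Aurka, the gene of Aurora A itself, rose by 1.50, adjusted p = 0.00934. Tacc3 (1.10, adjusted p = 0.00233) stabilises spindle microtubules, Nusap1 (1.49, adjusted p = 0.00113) bundles them, and Spag5 (1.44, adjusted p = 0.00524) encodes astrin, which helps align chromosomes.

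Kinesins are motors that move along microtubules, and 5 of 7 rose. Kif11 was measured at 5.15, 4.54, 4.24, 5.65 and 5.04 on the saline arrays, from 4.91 to 5.93 (median 5.60) with SD-101, at 5.11, 5.49, 5.60, 4.74 and 4.71 with SD-101+anti-PD-1 and at 6.50, 7.05, 6.92 and 6.83 in the a-CD4 group. Kif11, also called Eg5, pushes spindle poles apart, and had the smallest p of all members against saline (1.90, SE 0.26, adjusted p = 6.38e-04). Its lowest a-CD4 value exceeded the highest value of any other group, 5.93 with SD-101. Kif22 (1.83, adjusted p = 0.00107) and Kif4 (1.72, adjusted p = 0.00132) act on chromosome arms, Kif2c (1.91, adjusted p = 0.0113) takes microtubules apart at centromeres, and Kif20a (1.47, adjusted p = 0.038) acts in cytokinesis. Kif20a kept the call in 3 of the 9 fits that each left out 1 array (adjusted p up to 0.115, without a-CD4 replicate 2). Kif15 and Kif23 did not pass (0.21 and 0.26, adjusted p = 0.411 and 0.436). Kif15 was measured between 2.45 and 3.17 on all arrays, around the lower quartile of gene means (2.94), so its probe set had little signal to follow.

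At the centromere and kinetochore all 4 measured genes rose. Cenpf was measured at 6.29, 5.40, 4.50, 7.01 and 5.91 on the saline arrays, from 5.30 to 7.003 (median 6.54) with SD-101, at 6.55, 6.79, 6.62, 6.61 and 6.34 with SD-101+anti-PD-1 and at 7.71, 8.06, 7.27 and 7.47 in the a-CD4 group. Cenpf encodes a large protein of the outer kinetochore, and it rose by 1.81, SE 0.40, adjusted p = 0.0093. Ndc80 was measured at 5.11, 5.19, 4.59, 6.03 and 4.81 on the saline arrays, from 4.71 to 5.72 (median 5.63) with SD-101, at 5.06, 5.74, 5.85, 4.96 and 5.09 with SD-101+anti-PD-1 and at 6.17, 7.45, 6.36 and 6.43 in the a-CD4 group. Ndc80 grips the spindle microtubules, and it rose by 1.46, SE 0.30, adjusted p = 0.00628. Cenpa, the histone that marks the centromere, rose by 1.27, adjusted p = 0.00337, and the kinetochore motor gene Cenpe by 2.004, adjusted p = 0.0058.

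All 4 spindle checkpoint genes rose. Bub1b was measured at 6.56, 5.79, 4.48, 6.97 and 5.70 on the saline arrays, from 5.54 to 6.97 (median 6.61) with SD-101, at 6.23, 7.05, 6.75, 6.04 and 5.67 with SD-101+anti-PD-1 and at 7.39, 8.01, 7.53 and 7.70 in the a-CD4 group. Bub1b encodes BubR1, part of the complex that holds the anaphase-promoting complex inactive, and it rose by 1.76, SE 0.41, adjusted p = 0.013. Mad2l1, which encodes Mad2 of the same complex, rose by 1.33, adjusted p = 0.00107, and the checkpoint kinase gene Ttk by 1.88, adjusted p = 0.0107. Bub1, a kinase of the checkpoint, rose by 1.66, adjusted p = 0.0295 and kept the call in 3 of the 9 fits with 1 array left out (adjusted p up to 0.0855, without a-CD4 replicate 2).

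The chromosomal passenger complex corrects faulty attachments and guides cytokinesis, and its 4 measured genes rose. Aurkb was measured at 5.92, 4.56, 4.19, 6.47 and 4.19 on the saline arrays, from 5.37 to 6.49 (median 6.24) with SD-101, at 5.66, 6.39, 6.43, 5.96 and 5.42 with SD-101+anti-PD-1 and at 7.31, 7.73, 7.15 and 7.03 in the a-CD4 group. Aurkb encodes Aurora B, the kinase of the complex, and had the largest difference of all members, 2.24, SE 0.40, adjusted p = 0.00253, a 4.72-fold difference. Birc5 was measured at 7.61, 6.75, 6.15, 8.29 and 7.06 on the saline arrays, from 7.01 to 8.27 (median 8.13) with SD-101, at 7.39, 7.79, 8.16, 7.45 and 7.41 with SD-101+anti-PD-1 and at 8.54, 9.38, 8.96 and 8.86 in the a-CD4 group. Birc5 encodes survivin, and it rose by 1.76, SE 0.35, adjusted p = 0.00437. Cdca8, which encodes borealin, rose by 1.65, adjusted p = 0.0032, and Incenp, the scaffold, by 1.42, adjusted p = 0.00139.

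Of the 4 cytokinesis genes 2 rose. Prc1 was measured at 6.67, 6.57, 5.44, 7.66 and 6.09 on the saline arrays, from 6.22 to 7.42 (median 7.29) with SD-101, at 7.01, 7.81, 7.20, 7.08 and 6.78 with SD-101+anti-PD-1 and at 8.06, 8.82, 7.84 and 7.73 in the a-CD4 group. Prc1 bundles microtubules between the separating chromosomes, and it rose by 1.63, SE 0.37, adjusted p = 0.0108, although its lowest a-CD4 value, 7.73, was below the highest value with SD-101+anti-PD-1. Ect2, the activator of the contractile ring, rose by 1.56, adjusted p = 0.0485 and kept the call in 3 of 9 fits with 1 array left out (adjusted p up to 0.159, without a-CD4 replicate 2). Anln, which encodes the ring protein anillin, had a difference of 1.84 with an SE of 0.87 (adjusted p = 0.233). It was measured at 7.47, 5.67, 4.51, 8.57 and 4.46 with saline and at 7.95, 9.75, 6.47 and 7.75 in the a-CD4 group, the widest spread within a group of any member. Racgap1, the partner of Ect2, was at 8.22 ± 0.27 (SD, n = 5) with saline and 8.70 ± 0.23 (SD, n = 4) in the a-CD4 group (0.48, adjusted p = 0.0963).

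**Figure D3:**
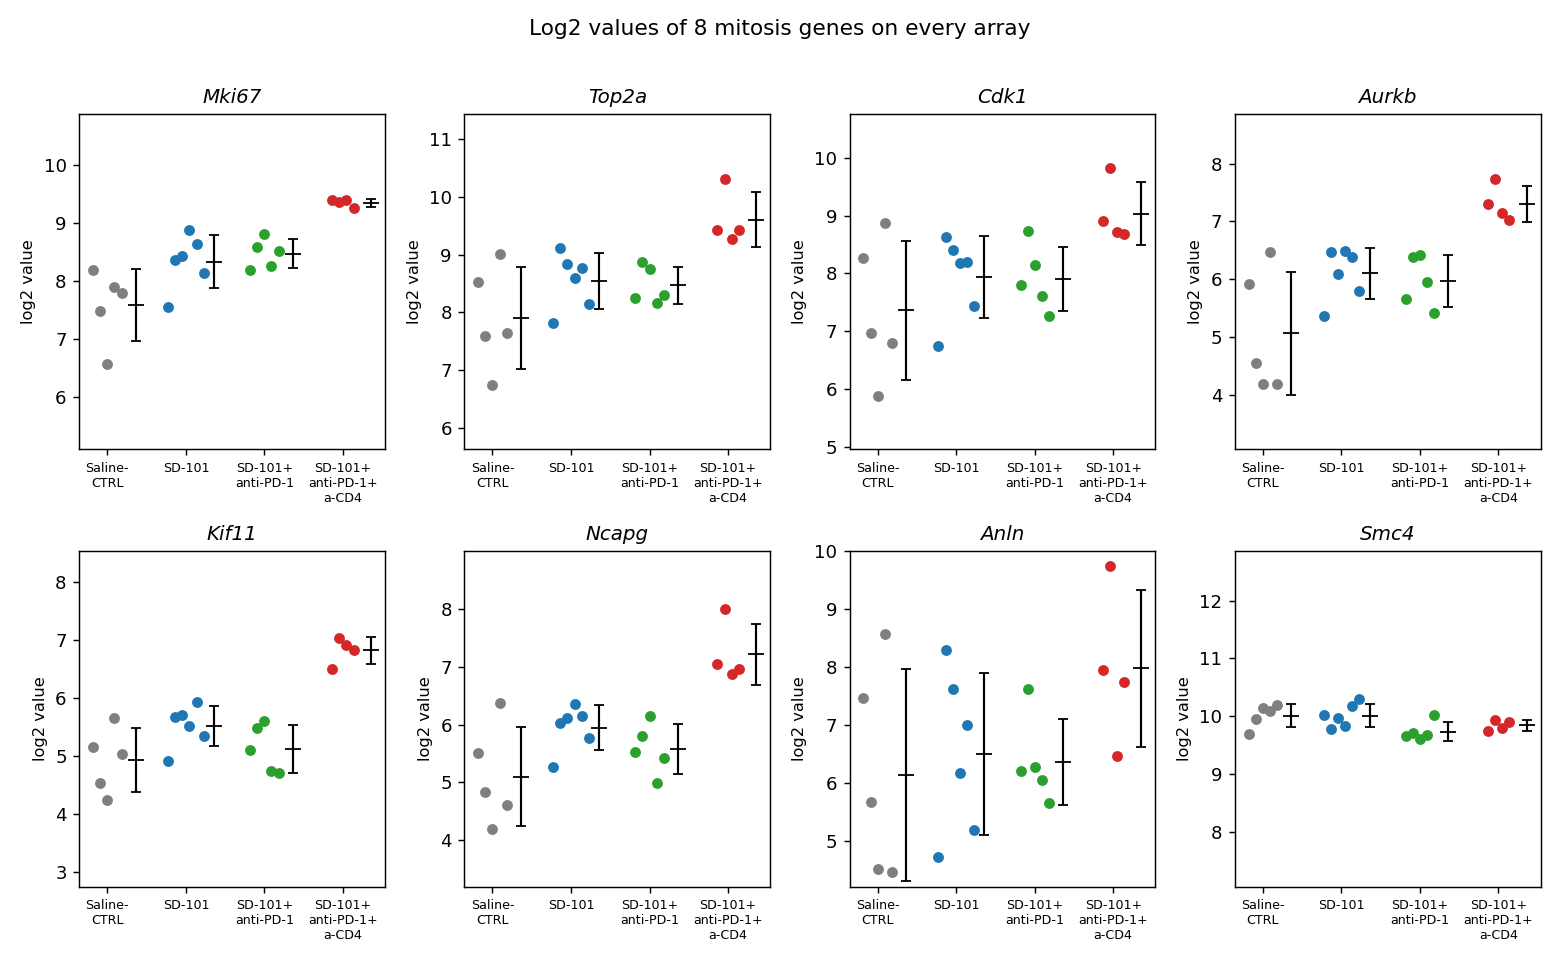
Log2 values of 8 mitosis genes on every array (points, in order of replicate number within each group) with the group mean ± SD beside them (n = 5, 6, 5 and 4 arrays). The a-CD4 points of Mki67, Top2a, Aurkb, Kif11 and Ncapg lie above all other points, those of Cdk1 and Anln overlap other groups, and those of Smc4 lie at the level of the rest.

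Calls against saline were stable for most members when arrays were left out. In 9 fits that each left out 1 array of the comparison, between 32 and 37 members were called, and 32 of the 36 stayed called in all 9, with Cdc20, Kif20a, Bub1 and Ect2 as the exceptions. With only these groups in the fit, 21 members passed, and 251 of all genes rose, against 700 in the main fit. The exact permutation test of single members, 2-sided, cannot go below p = 0.00794 for 4 against 5 arrays, and 11 members reached that value. Complete separation from saline, seen for 34 members, does not by itself give that p. The test was not run on all genes, so no share over all genes can be set beside the 11.

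The a-CD4 group and the SD-101+anti-PD-1 group differ in their labels by a-CD4 alone. All 42 members were higher in the a-CD4 group, with a median difference of 1.13 (0.0022 for all genes), and 15 rose, while 0.948% of all genes rose and 1.18% fell. In the same comparison all 9 endothelial markers were positive (median 1.39, 6 at an unadjusted p under 0.05, 0 called in limma), as were all 5 neutrophil markers (median 1.75, 0 called in limma, 0 at an unadjusted p under 0.05), and their part in the member values was not tested. For 34 members every a-CD4 array lay above every SD-101+anti-PD-1 array, which held for 3.92% of all genes. The exact permutation test, not run on all genes, gave its smallest possible p of 0.00794 for 26 members. Kif11, the spindle motor, again had the smallest p (1.70, SE 0.26, adjusted p = 0.00493). It was followed by the condensin gene Ncaph (1.01, adjusted p = 0.00798), the centromeric histone gene Cenpa (1.24, adjusted p = 0.0145), Cdca3 (1.21, adjusted p = 0.0244) and Ncapg (1.64, adjusted p = 0.0253).

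The others that rose were the spindle genes Tacc3, Spag5, Nusap1 and Tpx2, with Kif22, Smc2, Ndc80, Mad2l1, Incenp and Melk, by 0.69 (Smc2) to 1.33 (Melk). Mki67 did not pass (0.89, SE 0.27, adjusted p = 0.0887), although all 4 a-CD4 values exceeded all 5 SD-101+anti-PD-1 values (exact permutation p = 0.00794). Aurkb (1.33, adjusted p = 0.0877), Top2a (1.13, adjusted p = 0.105), Birc5 (1.30, adjusted p = 0.0561), Bub1b (1.31, adjusted p = 0.0943), Cenpf (1.05, adjusted p = 0.165), Cdc20 (0.75, adjusted p = 0.208), Prc1 (0.94, adjusted p = 0.18), Plk1 (1.11, adjusted p = 0.0817) and Cdk1 (1.13, adjusted p = 0.244) did not pass either.

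These 15 calls rested on few arrays. Only Kif11 and Ncaph stayed called in all 9 fits with 1 array left out. The count was 3, 3 and 4 without SD-101+anti-PD-1 replicates 1, 4 and 5, and 3, 2 and 5 without a-CD4 replicates 1, 2 and 4, while the median difference stayed between 0.99 and 1.25. Calls over all genes dropped too. From 162 in the main fit, the number that rose went to 35, 30 and 74 without those SD-101+anti-PD-1 replicates. It went to 37, 34 and 92 without those a-CD4 replicates. For each of the 13 members that lost the call, the highest adjusted p came without a-CD4 replicate 2, from 0.0573 for Cenpa to 0.186 for Tpx2. With only these groups in the fit 29 members passed, and with array weights 30. Of all genes, 149 and 530 rose in these fits, against 162 in the main fit.

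**Figure D4:**
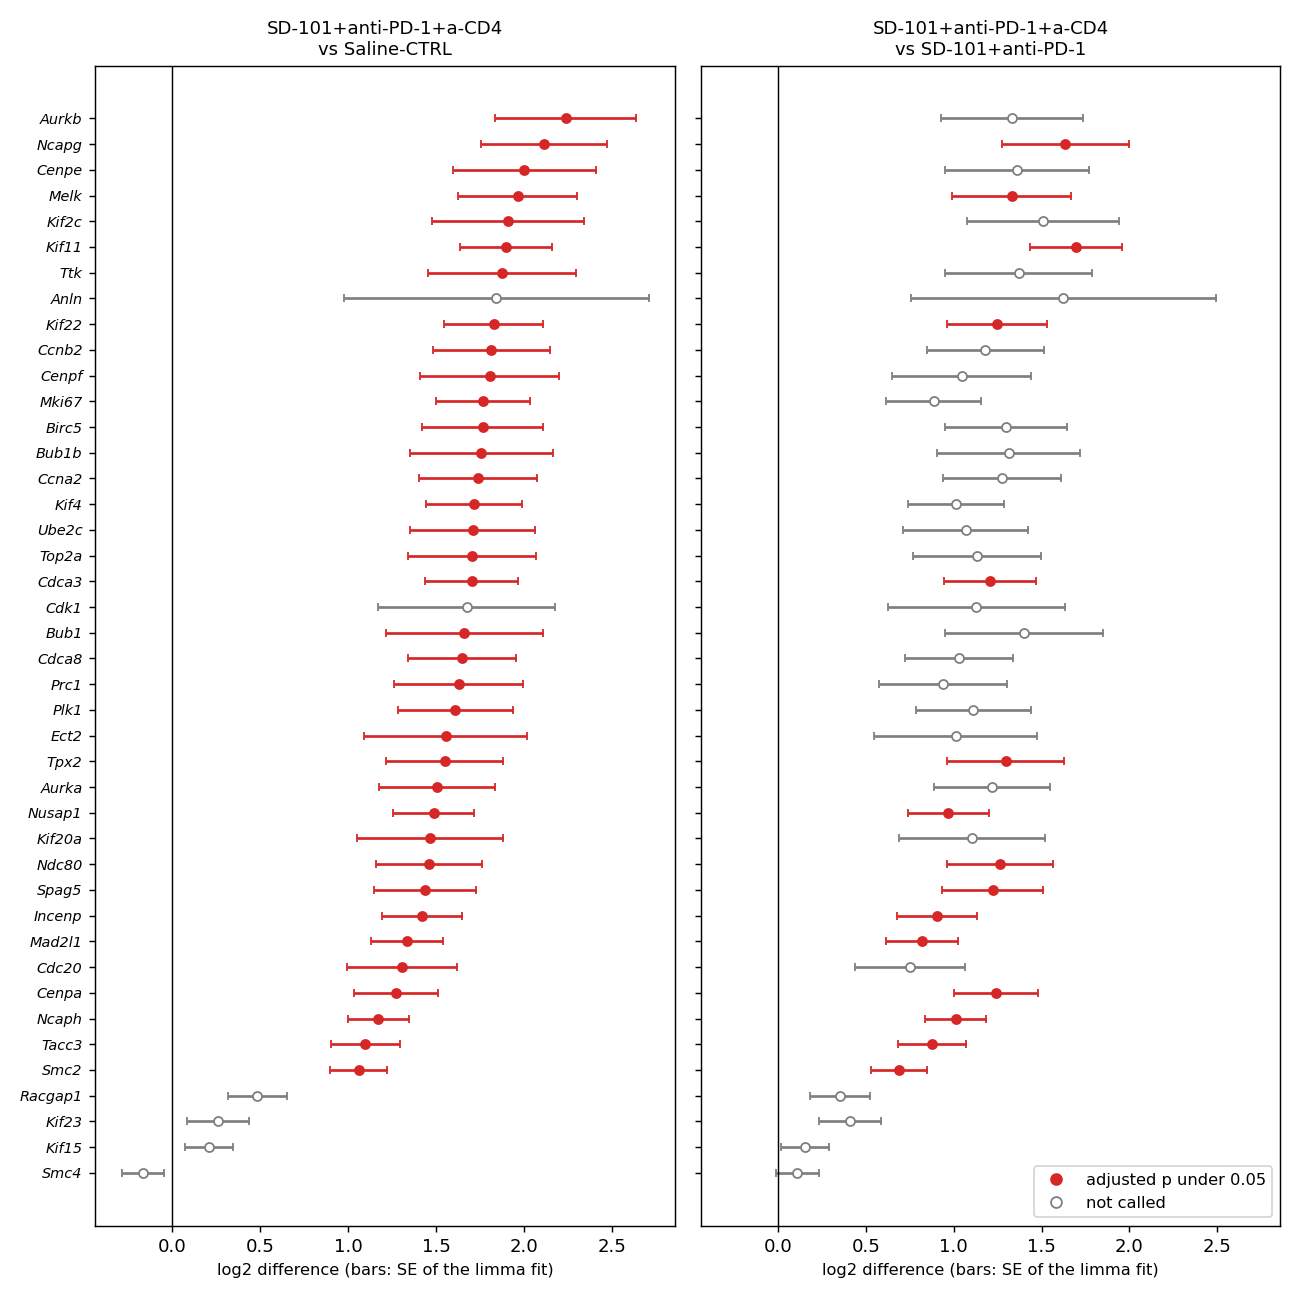
Log2 difference of each mitosis gene (points) with its SE in limma (bars), a-CD4 group minus saline on the left and minus SD-101+anti-PD-1 on the right, in order of the left-hand values. Filled red points have an adjusted p under 0.05, 36 on the left and 15 on the right, and 38 genes on the left lie above 1.

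SD-101 alone against saline left the module between the other groups. All 42 differences were positive, with a median of 0.56 (0.012 for all genes), but 0 members passed in limma, where 0.298% of all genes rose and 0.0351% fell. At an unadjusted p under 0.05 there were 15 of 42 members and 1414 of all 17097 genes. The median was 0.34 without saline replicate 3, and 0.46 to 0.78 without any other single array. Incenp had the smallest p (0.75, SE 0.21, adjusted p = 0.189), with saline values of 6.55, 6.10, 5.83, 7.01 and 6.54 and SD-101 values from 6.52 to 7.54 (median 7.17), so that 5 of 6 SD-101 arrays were above all saline arrays. Mki67 (0.75, SE 0.24, adjusted p = 0.348) and Aurkb (1.03, SE 0.36, adjusted p = 0.41) followed. Between the saline and a-CD4 means lay also those of Top2a, at 8.54 ± 0.48, Cdk1, at 7.94 ± 0.71, and Kif11, at 5.52 ± 0.35 (SD, n = 6).

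SD-101+anti-PD-1 against saline had a median difference of 0.49 (0.031 for all genes), with 40 of 42 members positive. The median was 0.22 without saline replicate 3, and 0.36 to 0.72 without any other single array. Only Mki67 passed (0.88, SE 0.25, adjusted p = 0.0473), where 3.47% of all genes rose and 2.15% fell. With 1 of 42 called, the members did not exceed the share of all genes. For Mki67, 4 of the 5 SD-101+anti-PD-1 values exceeded every saline value. The call held in 1 of 10 fits with 1 array left out, the one without saline replicate 1, and the adjusted p reached 0.126 without saline replicate 3.

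Adding anti-PD-1 to SD-101 gave no called member. Against SD-101 alone, SD-101+anti-PD-1 had a median difference of -0.11 (0.0080 for all genes), with 12 members positive and 30 negative, and of -0.24 to -0.012 with 1 array left out. In limma 0 members passed, and 1 had an unadjusted p under 0.05 (3122 of all genes), while 3.52% of all genes rose and 1.25% fell. That member was Smc4 (-0.28, SE 0.11, adjusted p = 0.161). Kif11 (-0.39, SE 0.24, adjusted p = 0.426) and Cenpa (-0.31, SE 0.22, adjusted p = 0.512) followed.

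With the mean of the 3 SD-101 groups, each weighted equally, 21 members rose against saline (2.52% of all genes rose and 2.08% fell) and the median difference was 0.90. These values share their arrays with the comparisons above. Mki67 (1.13, SE 0.21, adjusted p = 0.00456), Incenp (0.89, adjusted p = 0.00721) and Nusap1 (0.86, adjusted p = 0.00966) stayed called in all 20 fits with 1 array left out. Smc2 (0.59, adjusted p = 0.0103), Mad2l1 (0.74, adjusted p = 0.0114), Kif4 (0.99, adjusted p = 0.0116), Cdca3 (0.94, adjusted p = 0.0118) and Kif22 (1.01, adjusted p = 0.0124) each lost the call without saline replicate 3 (adjusted p = 0.0553, 0.0613, 0.0640, 0.0646 and 0.0690). The count was 10, 3 and 12 without saline replicates 2, 3 and 5. Of all genes, 413, 149 and 382 rose in these fits, against 430 in the main fit.

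The spread of the module within groups was wide. The median SD of the 42 members was 0.72 among saline arrays, 0.45 with SD-101, 0.39 with SD-101+anti-PD-1 and 0.34 in the a-CD4 group, against 0.23, 0.21, 0.19 and 0.22 for all genes. The members moved together from array to array. Saline replicate 3 was the lowest of its group for 33 members and replicate 4 the highest for 37. SD-101 replicate 1 was the lowest of its group for 36 members, and a-CD4 replicate 2 the highest of its group for 38. As the mean of the 42 members, the saline arrays ranged from 5.36 to 7.05, SD-101 from 5.96 to 6.94, SD-101+anti-PD-1 from 6.27 to 6.96 and the a-CD4 arrays from 7.49 to 8.11.

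Keratins of epithelial and carcinoma cells moved in part with the mitosis genes. Krt8 and Krt18 belong to a list of 11 lung epithelial and carcinoma markers that did not all move with them. In the a-CD4 group against SD-101+anti-PD-1, 4 of the 11 were positive, Krt8 and Krt18 among them, and 7 were negative. The median was -0.36, with 0 called in limma and 2 at an unadjusted p under 0.05. The mean of Krt8 and Krt18 was 10.07, 9.47, 8.20, 10.88 and 6.95 on saline replicates 1 to 5, where the mean of the mitosis genes was 6.52, 5.86, 5.36, 7.05 and 5.96. Both were highest in saline replicate 4. In the a-CD4 group the keratin mean was 10.49, 11.62, 9.69 and 9.97, and the mean of the mitosis genes 7.49, 8.11, 7.49 and 7.54. Replicate 2 was the highest array for both, and it also had the lowest Cd8a value (9.45). Its Sftpc value, 12.62, was the lowest of the a-CD4 group. The other 3 a-CD4 arrays had keratin values within the wide saline range (6.95 to 10.88), and mitosis gene means above all saline arrays. Their Krt8 and Krt18 values were above the saline group means of 9.16 and 9.07. The cause of the shared movement was not tested.

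With the keratin mean as a covariate in limma, an alternative chosen after the data were seen, 33 members rose in the a-CD4 group against saline and the median difference was 1.12 in place of 1.66. Kif11 (1.61, adjusted p = 0.00225), Mki67 (1.55, adjusted p = 0.00502) and Ncapg (1.54, adjusted p = 0.00486) were among them. Bub1, Bub1b, Kif20a and Ect2 lost the call (adjusted p = 0.133, 0.0582, 0.17 and 0.163) and Racgap1 gained it (0.68, adjusted p = 0.0242). The difference of Cdk1 went from 1.68 to 0.79 (adjusted p = 0.201) and that of Anln from 1.84 to 0.14 (adjusted p = 0.907). Against SD-101+anti-PD-1, 14 members rose with the covariate and the median was 0.88.

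Markers of other cells also differed between the groups. All 9 endothelial markers fell in the a-CD4 group against saline (median -2.20), and their mean per array was 7.85 to 9.93 with saline, 6.96 to 9.29 with SD-101, 4.97 to 6.16 with SD-101+anti-PD-1 and 6.27 to 7.79 in the a-CD4 group. The 5 neutrophil markers had a mean of 10.74 on saline replicate 1 and 9.72 on a-CD4 replicate 1, of 6.45, 4.07 and 6.22 on a-CD4 replicates 2 to 4, and of 2.99 to 6.71 on the remaining arrays. All 5 were positive in the a-CD4 group against saline (median 0.97) and against SD-101+anti-PD-1 (median 1.75), and limma called 0 (1 and 0 at an unadjusted p under 0.05). Of 5 CD4 and regulatory T cell markers, 4 and 5 were positive in these comparisons (medians 0.57 and 0.32). Foxp3, the factor that defines regulatory T cells, was the 1 that rose, by 0.59, adjusted p = 0.0156 against saline and 0.63, adjusted p = 0.0265 against SD-101+anti-PD-1. Its level was low, with means of 3.59 with saline, 3.61 with SD-101, 3.55 with SD-101+anti-PD-1 and 4.18 in the a-CD4 group. The median of gene means was 5.29. Of 11 lung epithelial and carcinoma markers 0 were called in limma against saline (2 at an unadjusted p under 0.05), and all 11 were positive (median 0.55). Of 11 CD8 T cell markers 0 were called in limma in this comparison (1 at an unadjusted p under 0.05). Their mean was lowest on a-CD4 replicate 2 (8.71) and saline replicate 1 (9.06). Without these 2 arrays 33 members rose against saline, and 2 against SD-101+anti-PD-1 (593 and 28 of all genes). Without the 2 arrays of highest neutrophil mean, 34 and 2 rose (478 and 28 of all genes). The part of endothelial and other lung cells in the member values was not tested further.

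**Figure D5:**
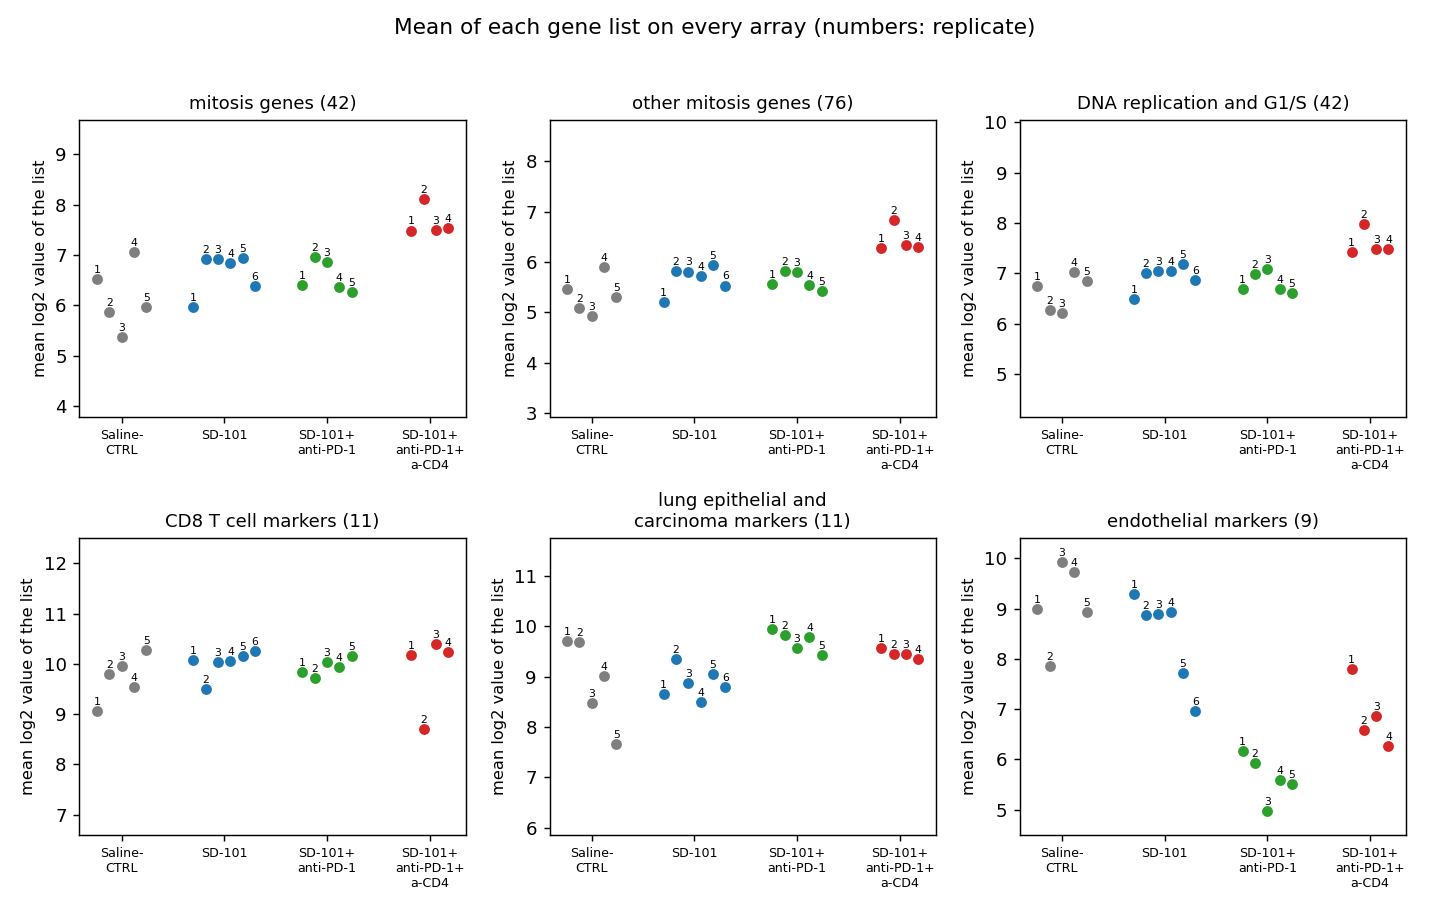
Mean log2 value of each gene list on every array (points, numbered by replicate), by group, with the number of measured genes in brackets. The 4 a-CD4 arrays lie above all others for the mitosis and DNA replication lists, while the CD8 T cell and lung epithelial lists overlap between the a-CD4 and saline groups and the endothelial markers are lower in it.

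Cell cycle genes outside the module were counted from lists that do not share members with it. Of 76 other mitosis genes, 53 rose and 0 fell in the a-CD4 group against saline (median 1.19), where 4.09% of all genes rose and 3.03% fell, and between 43 and 58 rose with 1 array left out. The smallest p values were those of Knl1 (1.90, adjusted p = 4.05e-04), a kinetochore scaffold, Fbxo5 (0.90, adjusted p = 6.46e-04), an inhibitor of the anaphase-promoting complex, Dlgap5 (1.18, adjusted p = 6.46e-04), a spindle protein, and Pttg1 (1.41, adjusted p = 6.54e-04), securin. Against SD-101+anti-PD-1, 26 of the 76 rose (0.948% of all genes), and 5 without a-CD4 replicate 2. Sapcd2 (1.29, adjusted p = 0.00603), Dlgap5 (0.94, adjusted p = 0.0111), Cenpp (1.40, adjusted p = 0.0111) and Fbxo5 (0.71, adjusted p = 0.0111) stayed called in all 9 fits with 1 array left out.

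DNA replication and G1/S genes, which act before mitosis in the cycle, were higher as well. Of 42 measured, 30 rose and 0 fell against saline (median 0.93, with 4.09% of all genes rising), and 19 without saline replicate 3. Clspn (1.84, adjusted p = 3.42e-04), a replication checkpoint adaptor, the clamp loader gene Rfc5 (0.94, adjusted p = 0.00166), the ribonucleotide reductase gene Rrm2 (1.93, adjusted p = 0.00176) and the flap nuclease gene Fen1 (1.005, adjusted p = 0.00182) had the smallest p. Against SD-101+anti-PD-1, 14 of 42 rose (0.948% of all genes), and 0 without a-CD4 replicate 2, with Clspn (1.19, adjusted p = 0.0145), the polymerase and primase genes Pole (1.06, adjusted p = 0.0178) and Prim1 (0.69, adjusted p = 0.0178) and the reductase gene Rrm1 (0.88, adjusted p = 0.0181) first by p. In promoter windows of this list a CHR was present in 15.9% (7 of 44), an NF-Y box in 61.4% and the E2F letters in 18.2% (8 of 44), against 78.9%, 73.7% and 0 for the windows of the module. The other mitosis genes lay between, with a CHR in 50.7% of 73 windows, an NF-Y box in 65.8% and the E2F letters in 5.

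Cell cycle inhibitors and quiescence genes moved less uniformly. Of 20 measured, 4 fell and 2 rose in the a-CD4 group against saline, where 3.03% of all genes fell and 4.09% rose. Those that fell were Klf2 (-1.51, adjusted p = 0.00176), a factor of resting T cells, the antiproliferative genes Tob1 (-1.13, adjusted p = 0.00445) and Btg2 (-1.29, adjusted p = 0.00661), and Lin52 (-0.53, adjusted p = 0.00659), a subunit of the MuvB complex that binds the CHR. Those that rose were Rbl1 (0.55, adjusted p = 0.00368), which encodes p107 and is itself transcribed in dividing cells, and Cdkn2a (1.43, adjusted p = 0.00887), which encodes p16 and p19ARF. These 6 calls held in all 9 fits with 1 array left out. Btg2 and Cdkn2a, the remaining called genes of the list, were named after their values were seen. Against SD-101+anti-PD-1 only Lin52 passed (-0.48, adjusted p = 0.0326), in 3 of 9 fits with 1 array left out, up to an adjusted p of 0.0969 without SD-101+anti-PD-1 replicate 1.

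In the comparisons without a-CD4 few of these genes passed. With SD-101 alone against saline, limma called 0 genes of the 3 lists (0.298% of all genes rose). At an unadjusted p under 0.05 there were 24 of 76 other mitosis genes, 8 of 42 replication genes and 2 of 20 inhibitors, against 1414 of all 17097 genes. With SD-101+anti-PD-1 against saline, where 3.47% of all genes rose and 2.15% fell, 1 of 76, 1 of 42 and 2 of 20 passed, so the first 2 lists did not exceed the share of all genes. Rbl1 (0.56, adjusted p = 0.00201) rose in all 10 fits with 1 array left out, and Klf2 (-0.97, adjusted p = 0.0197), the spindle gene Psrc1 (0.93, adjusted p = 0.0327) and the cyclin E gene Ccne1 (0.91, adjusted p = 0.0265) passed in 7, 3 and 5 of the 10, with adjusted p up to 0.0692 and 0.0903 without saline replicate 3 for Klf2 and Ccne1 and 0.0884 without SD-101+anti-PD-1 replicate 2 for Psrc1. With SD-101+anti-PD-1 against SD-101, where 1.25% of all genes fell, Klf2 was the 1 called gene of the 3 lists (-0.88, adjusted p = 0.0344), in 3 of 11 fits with 1 array left out (its highest adjusted p, 0.0906, came when SD-101+anti-PD-1 replicate 1 was dropped).

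Other probe sets of the same genes were mixed. The 42 members had 74 probe sets, and 24 members had more than 1. Of the 32 probe sets not used above, 20 were higher by more than 0.5 in the a-CD4 group than with saline, and 16 had every a-CD4 array above every saline array. The other 12 differed by -0.12 to 0.37, among them probe sets of Top2a (-0.084), Bub1b (-0.064) and Incenp (0.019), whose probe sets used above were called. These probe sets had means of 2.54, 2.79 and 2.55 over all arrays, under the lower quartile of gene means (2.94), so they had little signal to follow. The remaining unused probe set of each of these genes was higher in the a-CD4 group, by 0.61, 1.79 and 1.02. Unused probe sets of Cenpa (mean 4.15) and Tacc3 (mean 3.93) lay above that quartile, yet differed from saline by only 0.23 and 0.32. The probe sets used for these 2 called genes differed by 1.27 and 1.10. Members with a CHR in the promoter window (28) had a median difference from saline of 1.69 (0.21 to 2.11), and those without (8) a median of 1.57 (1.10 to 2.004), so the ranges overlapped widely. The same was true of the NF-Y box, with 1.69 for 26 members with it and 1.47 for 10 without.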

How the data were processed

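RNA of purified CD44+CD8+ T cells from tumour-bearing lungs was measured on 20 Affymetrix arrays. The series table that the authors deposited holds signals as log2, 1 row a probe set. Per the submitters' processing notes, affy, RMA and limma were used and the build was mm8, with no versions. Of 45141 probe sets, 28898 are listed with 1 gene symbol, 551 with several and 15692 with none. Each of the 17097 genes is its probe set of highest mean. The members and gene lists were chosen with earlier results of these data known. limma 3.58.1 in R 4.3.3 fitted the 4 group means to all genes and arrays, for 6 comparisons, with Benjamini-Hochberg adjustment over all genes at 0.05, after a test on simulated data. Single members also got 2-sided exact permutation tests. No low-value filter was applied. Members were described by role. Those shown array by array were chosen by name, with up to 8 called members of smallest p per comparison, or the first 3 where none was called, and up to 4 called genes for each other list. Promoters were searched with Python 3.11.15. Alternatives were other probe set, scaling, filter, variance, array weight and sample choices, a replicate block and each array left out.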

Additional observations from a re-analysis of the deposited data

Results flagged for a closer look

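Of 172 groups of 4 to 6 arrays checked for the member values and their mean, 9 held an array whose gap to its nearest neighbour took up most of the group's range. About 5 in 100 such groups are expected to do so by chance, and the groups are not independent, because the members move together. In a-CD4 replicate 2, Cdc20 stood apart at 9.361 (next array 8.592), Ncapg at 7.997 (7.041), Top2a at 10.31 (9.42) and the mean of the mitosis genes at 8.11 (7.54), each as the highest. This array also had the lowest Cd8a value and the highest keratin mean. In SD-101 replicate 1, Smc2 at 7.516 (next array 7.978), Ndc80 at 4.708 (5.587) and Ttk at 4.522 (5.673) stood apart as the lowest. Racgap1 was lowest at 7.943 in SD-101 replicate 2 (8.547). Smc4 was highest at 10.01 in SD-101+anti-PD-1 replicate 5 (9.719). The causes were not tested.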

How the results depend on the processing

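Of the recomputed counts and medians over the members, 238 stayed within 1.5 times the count or within the spread between arrays, and 32 moved. Of the recomputed single-member differences, 1077 kept their direction and side of the threshold, 96 lost the call, 20 gained it and 0 reversed. Against saline, the a-CD4 group had 36 called members, and 21 with only these groups in the fit (700 and 251 of all genes rose). Its median of 1.66 became 1.12 with the keratin covariate. Of the 36 calls, 21 held under each of 8 planned settings other than leaving out arrays. Against SD-101+anti-PD-1, the 15 calls became 30 with array weights, 29 with only these groups in the fit, 2 without the 2 arrays of lowest CD8 T cell score, 2 without the 2 of highest neutrophil score, and 2 to 15 with 1 array left out. Of all genes, 162 rose in the main fit, 530 with array weights and 149 with only these groups. Without either pair of arrays, 28 rose. The call of Mki67 with SD-101+anti-PD-1 against saline was the 1 call there. That count became 0 with arrays centred on their median, 0 with only these groups in the fit, 0 with the keratin covariate, 3 with array weights (2 rose and 1 fell), and 0 to 1 with 1 array left out. SD-101+anti-PD-1 against SD-101 went from 0 to 1 with the mean of all probe sets (Cenpa, which fell) and 1 with array weights (Smc4, which fell). The 21 calls of the 3 SD-101 groups together became 3 to 31 with 1 array left out. The covariate and both 2-array settings were chosen after seeing the data. The cause was not tested for these shifts.

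The replicate numbers were not taken as pairs in the main fit, and the correlations below cannot settle whether they are. Same-numbered arrays of different groups had correlations of their deviations from -0.39 to 0.51 (27 pairs, median 0.013, 9 over 0.1). Arrays of different groups and different numbers had -0.64 to 0.67 (122 pairs, median -0.012, 40 over 0.1). With the replicate block, the calls were 0 for SD-101+anti-PD-1 against saline, 6 for the a-CD4 group against SD-101+anti-PD-1 and 12 for the 3 SD-101 groups together.

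Array values give no read depth. Kif15, with a mean of 2.85, lay under the lower quartile of gene means, 2.94.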
